A study of Mus musculus with 6 samples.

Results

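Ribosomal protein pseudogenes are copies of the genes that encode the protein part of the ribosome. The members described here were the genes with a pseudogene biotype in the GENCODE annotation of mouse GRCm38 whose symbol names a ribosomal protein gene and a copy, such as Rpl14-ps1, plus Rps3a2 and Rps3a3. By this rule 296 annotated genes qualified, and 276 of them were among the 49315 genes counted in the files. Rps3a2 and Rps3a3 were chosen by their counts in these same libraries, so their values are given as a description and without a test. The other 274 members were selected on their annotation.

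Bulk RNA-seq was available for 6 libraries of sorted mouse bone marrow cells. LT-HSCs (long-term stem cells), ST-HSCs (short-term stem cells) and MPPs (multipotent progenitors) came from WT mice and from ING4-/- mice, which lack ING4, a chromatin-associated tumor suppressor. The labels state no age, strain or treatment for these mice. Marrow of several mice was pooled before sorting, and each population had 1 library per genotype, so the 3 populations stood in as replicates and a p-value here measures the spread between them. Nothing in the labels says that the pools were made more than once.

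Total counts were 7839326 to 9363442 in WT and 35596876 to 39192588 in ING4-/-. For the targeted gene Ing4, in the order LT-HSCs, ST-HSCs, MPPs, which is used for all triplets of values here, WT had 247, 162 and 247 counts and ING4-/- had 0, 24 and 76. Of the 5 genes of the sort, 4 had counts in all 6 libraries, while Cd48, whose protein the gates exclude in all 3 populations, had 50, 154 and 376 counts in WT and 0, 1077 and 4300 in ING4-/-. The erythroid list summed to 16.0 to 22.2 counts per 1000000 counts (CPM) in WT and 82.9 to 144 in ING4-/-, and the granulocyte list to 31.0 to 185 and 73.7 to 318. The T and NK cell list summed to 53.7 to 127 and 26.9 to 267, and the B cell list to 67.4 to 87.6 and 64.6 to 112. Genes of olfactory and vomeronasal receptors, which blood stem cells are not known to use, carried 22.4, 22.7 and 18.1 counts per kb of exon in the WT libraries and 0.0853, 0.0694 and 0.0387 in the ING4-/- libraries. Alas2, Hba-a2, Elane, Cd79a, Ms4a1, Cd3d, Cd3e, Cd3g and Gzma were among the markers at 0 in at least 1 library. The part of these lists and of this background in the results below was not tested, except where a value with the background subtracted is given.

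Ribosomal protein genes are among the most highly transcribed genes of a growing cell. Their short, abundant and spliced messenger RNAs have often been copied back into the genome, and each such processed pseudogene is an intronless copy at a new position. Most of these copies lack a promoter of their own, and a read from the parent messenger RNA can match a young copy as well as it matches the parent. Of the 276 members, 270 were annotated as processed pseudogenes and 6 as transcribed processed pseudogenes. Their exonic lengths ran from 171 to 1214 bases, they lay on 20 chromosomes with 35 on the X chromosome, and 84 lay inside the bounds of another gene. Exonic bases were shared with a gene of the same strand in 5 members and of the opposite strand in 3.

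Each member was aligned to the transcripts of the 84 cytosolic ribosomal protein genes, and 272 found a parent among 59 of these genes. For 270 the parent was the gene in the symbol, and for the other two it was the best match. Identity over the aligned bases, with gaps counted as differences, ran from 70.9% to 100%, with a median of 96.4%. It was 99% or more in 55 members and 100% in 12.

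The sequences of the Rps3a family are shown because this family held most of the member counts. Rps3a1 encodes a protein of the small subunit and lies at chr3:86137940-86142702 on the minus strand of GRCm38. Rps3a2 is at chr14:88123017-88123808 on the minus strand, outside any other gene. Rps3a3 is at chr13:108670603-108671397 on the plus strand, inside Pde4d. Positions below are counted from 1 at the first base of the Rps3a1 coding sequence. Over 792 coding bases, Rps3a2 differed from Rps3a1 by 4 substitutions and Rps3a3 by 9, of which 2, T216C and T534C, were in both copies. A645T and T668C were in Rps3a2 alone. T260C, C363T, A427T, G582T, A660G, C762T and G792A were in Rps3a3 alone. Both copies kept the start codon and read without a stop over 264 codons, the length of the parent's reading frame. Bases 524 to 678, read from the GENCODE transcripts, are printed with the bases that differ between the family members in capitals. In the copies they are chr14:88123131-88123285 and chr13:108671126-108671280.
Rps3a1: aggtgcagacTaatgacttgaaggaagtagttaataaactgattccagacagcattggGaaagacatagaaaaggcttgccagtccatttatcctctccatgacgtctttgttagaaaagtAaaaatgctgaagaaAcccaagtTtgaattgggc
Rps3a2: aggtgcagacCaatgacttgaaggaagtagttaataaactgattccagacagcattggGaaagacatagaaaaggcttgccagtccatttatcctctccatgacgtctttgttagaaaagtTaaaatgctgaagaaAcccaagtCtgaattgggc
Rps3a3: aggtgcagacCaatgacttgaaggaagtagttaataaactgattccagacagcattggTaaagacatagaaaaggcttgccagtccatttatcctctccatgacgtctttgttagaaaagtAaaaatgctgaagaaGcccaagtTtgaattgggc

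An identical pair and a more diverged pair are shown for comparison. Rps16-ps2, at chr5:129128077-129128517 on the minus strand, matched Rps16 at all 438 coding bases, so the first 60 bases of the coding sequence, chr5:129128458-129128517 in the copy, carry no capitals.
Rps16: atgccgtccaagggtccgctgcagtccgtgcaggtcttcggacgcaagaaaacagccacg
Rps16-ps2: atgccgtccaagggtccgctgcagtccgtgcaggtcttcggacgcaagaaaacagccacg

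Rpl10-ps2, at chr8:106927769-106928413 on the minus strand, differed from Rpl10 by 21 substitutions over 642 bases. Of these, 7 fall within bases 297 to 360 of the Rpl10 coding sequence, chr8:106928054-106928117 in the copy, and are in capitals.
Rpl10: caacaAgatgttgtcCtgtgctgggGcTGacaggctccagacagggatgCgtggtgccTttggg
Rpl10-ps2: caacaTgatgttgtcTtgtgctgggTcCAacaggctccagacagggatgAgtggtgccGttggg

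In the ING4-/- libraries, Rps3a3 and Rps3a2 together held 64.9%, 58.7% and 59.0% of all counts on members, against 0.789%, 0.983% and 1.23% in WT. Rps3a3 had 22, 38 and 42 counts in the WT libraries and 36368, 32825 and 32535 in the ING4-/- libraries. The receptor background gives 17.8, 18.1 and 14.4 counts over the same length in WT and at most 0.0678 in ING4-/-. Every ING4-/- library was above every WT library. On the scale of CPM after TMM normalization, Rps3a3 was at 3.51 ± 1.03 in WT and 1053 ± 102 in ING4-/- (mean ± SD, n = 3 populations), a log2 fold change of 8.23 (SE 0.32).

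Rps3a2 had 21, 19 and 34 counts in WT and 8776, 7974 and 7545 in ING4-/-, or 2.53 ± 0.702 and 252 ± 29.0 CPM (mean ± SD, n = 3). Its log2 fold change was 6.63 (SE 0.32). The genotypes did not overlap in either copy, and this pattern is what they were chosen for.

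Rps3a1 itself had 5661, 5920 and 6780 counts in WT and 23862, 22320 and 23859 in ING4-/-. Scaled to library size these levels lay close together, at 633 ± 34.7 CPM in WT and 724 ± 33.4 in ING4-/- (mean ± SD, n = 3). The log2 fold change was 0.19 (SE 0.13), and 0.79 with upper-quartile normalization. Its sign turned under other scalings, to -0.16 with DESeq2 size factors and to -0.62 with the receptor background subtracted. Rps3a1 was therefore not given a direction here.

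The counts of the family were divided differently in the genotypes. In WT, Rps3a1 held 99.25% of the family counts (exact 95% interval 98.99% to 99.45%), then 99.05% (98.77% to 99.28%) and 98.89% (98.61% to 99.13%). In ING4-/-, Rps3a1 held 34.6% (34.2% to 34.9%), 35.4% (35.0% to 35.7%) and 37.3% (36.9% to 37.7%). Rps3a3 took 52.7%, 52.0% and 50.9% there, and Rps3a2 12.7%, 12.6% and 11.8%. The ratio of Rps3a3 to Rps3a2 counts was 4.14, 4.12 and 4.31 in the ING4-/- libraries and 1.05, 2.00 and 1.24 in WT, where it rests on 19 to 42 counts a locus. The intervals cover counting error only.

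**Figure D1:**
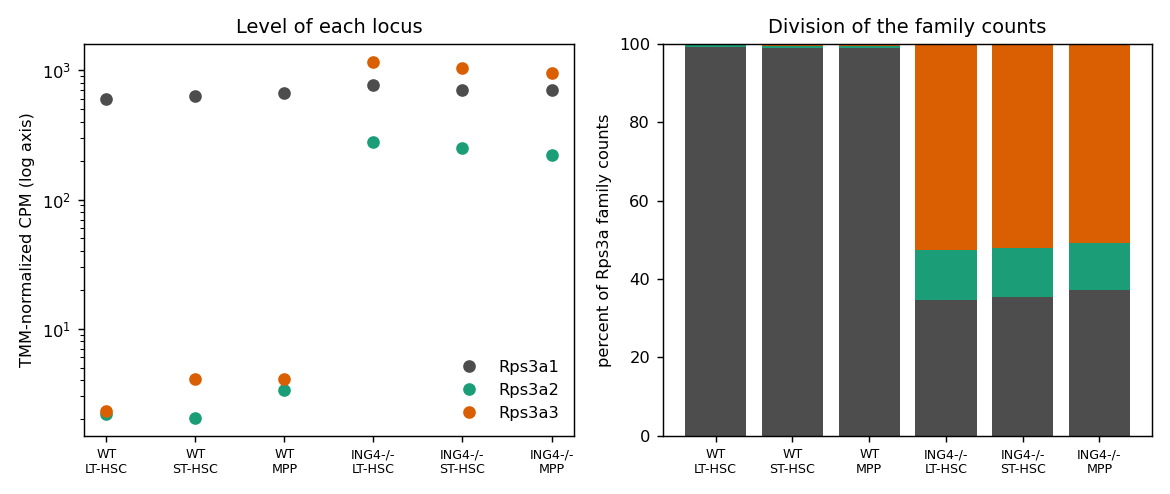
Left, the level of Rps3a1 and its copies in each library in TMM-normalized CPM on a log axis; right, the percent of the family's counts on each of these loci, 1 bar per library. Rps3a1 lies between 596 and 762 CPM in all 6 libraries, while its copies lie below 5 in WT and above 220 in ING4-/-.

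How much of each sequence can tell the family members apart was counted in windows of 100 bases, since the read length is not given in the sources used here. Of such windows, 68.4% in Rps3a3, 33.3% in Rps3a2 and 57.6% in the Rps3a1 transcript were absent from the other two. As counts are not placed within a locus, the whole count of each locus was divided by its number of such windows. In the ING4-/- libraries this gave 76.4, 69.0 and 68.4 for Rps3a3, 38.0, 34.5 and 32.7 for Rps3a2 and 47.2, 44.1 and 47.2 for Rps3a1. In WT it gave 11.2, 11.7 and 13.4 for Rps3a1, and at most 0.147 for either copy. With windows of 50 bases Rps3a2 moved ahead of Rps3a1 in ING4-/-, at 108, 98.4 and 93.1 against 71.2, 66.6 and 71.2, so the order of these loci depends on the window. Outside the members, 7 further annotated pseudogenes aligned to Rps3a1, and together they carried 46, 120 and 56 counts in WT and 138, 171 and 140 in ING4-/-.

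Among the other 274 members, 187 passed the filter on low counts and 47 of these (25.1%) rose in ING4-/-, against 7.98% of all 31001 genes tested. A further 74 (39.6%) fell, against 56.7% of all genes tested. A rise or fall here is an adjusted p under 0.05 with a log2 fold change beyond 1 in edgeR's quasi-likelihood test, adjusted over all genes. The median log2 fold change of the tested members was -0.25. Over all genes tested it was -6.85, or -3.92 with genes at 0 in every ING4-/- library set to the bound that 3 counts a library allow. The 87 members that did not pass the filter were too low for a test, and among them 11 had no count in any library, 7 of which are copies of Rps12. A member could pass the filter through the genotype in which it was higher, so these counts describe the members that passed. Every ING4-/- library lay above every WT library in 34.2% of the tested members, against 12.0% of all genes, and below in 41.7%, against 62.9%.

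With population as a block, 8 of the 187 members (4.28%) rose, all among the 47, against 6.45% of all genes, and 52 (27.8%) fell, against 54.4%. The share of rising members was thus above the share over all genes without the block and below it with the block. With at least 10 counts required in every library, 15 of 55 members (27.3%) rose, against 8.3% of all genes, and 13 (23.6%) fell, against 9.68%, so that the share of falling members was below that of all genes in the first fit and above it in this one. Over every gene of that fit the median log2 change was 0.02, and it was -0.93 with the receptor background subtracted, in place of -6.85. Without WT LT-HSCs, ST-HSCs or MPPs, 30, 28 or 30 members rose. These fits tested 34725, 32547 and 32386 genes, so the counts cannot be read as shares like those above.

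The level of a copy followed its likeness to the parent in the ING4-/- libraries and much less in WT. The 54 members at 99% identity or more had together 501, 577 and 549 counts per kb in ING4-/-. The 66 members from 97% to 99% had 233, 277 and 279, the 96 from 90% to 97% had 52.7, 62.8 and 64.8, and the 54 under 90% had 3.99, 11.7 and 5.12. In WT these same classes had 36.9 to 50.6, 41.2 to 48.4, 39.9 to 44.2 and 32.1 to 35.4 counts per kb, beside a receptor background of 18.1 to 22.7. These are counts per kb within a library, not scaled to depth. Across the 270 aligned members other than Rps3a2 and Rps3a3, Spearman's rho between identity and the summed counts per kb was 0.759 in ING4-/- and 0.127 in WT. The members share their libraries, and many share a parent.

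**Figure D2:**
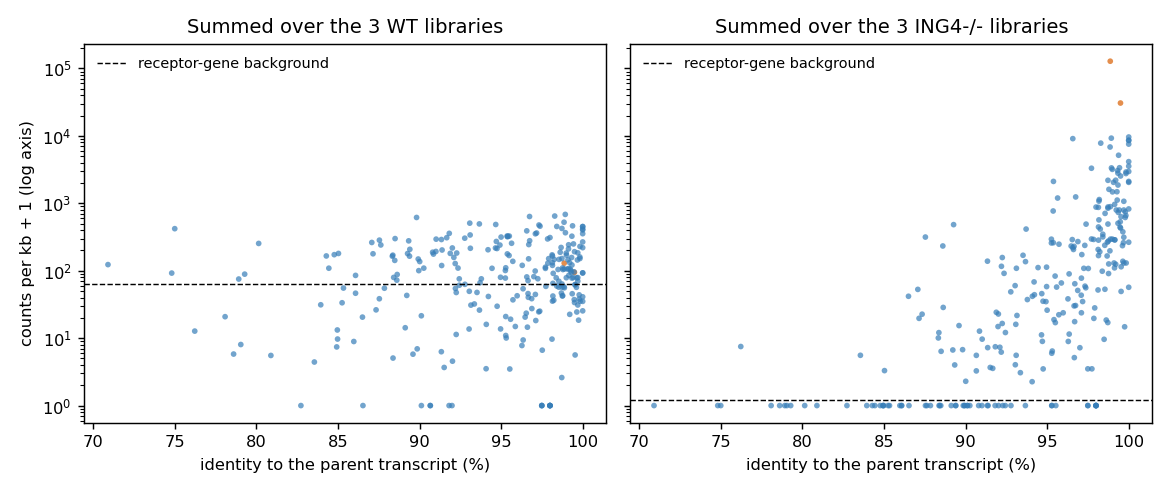
Each point is 1 of the 272 aligned members, by its percent identity to the parent (x axis) and its counts per kb, plus 1 on a log axis, summed over the 3 WT libraries (left) or the 3 ING4-/- libraries (right). The dashed line is the receptor background and orange points are Rps3a2 and Rps3a3. Points rise with identity on the right (rho 0.759 over the 270 blue points) and scatter about the dashed line on the left (rho 0.127).

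The share of rising members was highest in the class nearest to the parents. Of the tested members at 99% identity or more, 30 of 50 rose and 1 fell. From 97% to 99%, 12 of 54 rose and 18 fell, and from 90% to 97%, 5 of 57 (8.77%) rose and 33 (57.9%) fell, which is close to the 7.98% and 56.7% over all genes tested. Under 90%, none of 24 rose in edgeR, at an unadjusted p under 0.05 or in DESeq2, and 21 fell. In 19 of these 21 no ING4-/- library had more than 3 counts. Of the 18 tested members with no 100-base window of their own among annotated transcripts, 15 rose and none fell in edgeR, at an unadjusted p under 0.05 or in DESeq2, and of the 54 in which every window was their own, 1 rose and 43 fell. Of members inside another gene, 22 of 61 rose and 15 fell (4 and 11 with population as a block), and of members outside, 25 of 126 rose and 59 fell (4 and 41). With population as a block, 5 of 50, 2 of 54, 1 of 57 and 0 of 24 rose, from the highest identity class down, against 6.45% of all genes. Below the highest class these shares were under that of all genes. Falls with the block numbered 0, 5, 27 and 19, against 54.4% of all genes. Of members without a window of their own 3 rose under the block and 0 fell.

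The 8 most abundant copies after Rps3a3 and Rps3a2 held 37.0% of the remaining member counts in ING4-/-, and the 7 of them described here had 0.695% to 4.33% of the parent's count. This fraction overlapped between the genotypes in each of the 7. Rpl14-ps1, a copy of the large-subunit gene Rpl14 at chr7:45324965-45325617 inside Trpm4, had 115, 94 and 237 counts in WT and 1955, 2097 and 1984 in ING4-/-. This was 2.73%, 1.93% and 4.33% of the Rpl14 count in WT and 2.70%, 3.10% and 2.80% in ING4-/-. Scaled to library size it rose from 15.2 ± 7.08 to 62.4 ± 3.91 CPM (mean ± SD, n = 3), a log2 fold change of 2.04 (SE 0.42, adjusted p = 0.0035 in edgeR), beside 2.12 (SE 0.13) for Rpl14.

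Rps16-ps2, the identical copy printed above, had 43, 59 and 75 counts in WT and 982, 1462 and 1361 in ING4-/-. These were 2.36%, 2.49% and 3.22% of the counts of Rps16, a small-subunit gene, in WT and 2.64%, 3.23% and 3.07% in ING4-/-. No window of 100 bases told it from Rps16, and its log2 fold change was 2.69 (SE 0.46) beside 2.54 (SE 0.17).

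Rps13-ps2 is 100% identical to its small-subunit parent as well, with 63, 42 and 55 counts in WT and 1064, 1238 and 1115 in ING4-/-. Its log2 fold change was 2.68 (SE 0.45) beside 2.27 for Rps13. Rpl31-ps8, identical to the large-subunit gene Rpl31, had 56, 52 and 62 counts in WT and 900, 1135 and 1187 in ING4-/-, with 2.50 (SE 0.44) beside 2.16. All libraries of ING4-/- lay above all libraries of WT in both.

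Rpl3-ps1, a copy of the gene for a large-subunit protein near the peptidyl transferase center, had 78, 77 and 121 counts in WT and 1311, 1086 and 1123 in ING4-/-. Its fraction of the Rpl3 count was 0.882% to 1.08% in WT and 1.05% to 1.09% in ING4-/-. The log2 fold change was 1.95 (SE 0.43) beside 1.79 for Rpl3. It is 99.8% identical to the parent over 1209 bases, yet its annotated sequence does not begin with a start codon.

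Rps19-ps6, a copy of Rps19, the small-subunit gene often mutated in Diamond-Blackfan anemia, had 51, 90 and 88 counts in WT and 865, 1083 and 1045 in ING4-/-. It rose by 1.97 (SE 0.47) beside 2.32 for Rps19, and its call was lost with population as a block (edgeR adjusted p = 0.057) as well as with the background subtracted (0.115). Rpl36-ps2, at chr11:76601319-76601629 inside Abr, had 25, 57 and 39 counts in WT and 824, 844 and 1160 in ING4-/-. Its log2 fold change was 2.79 (SE 0.55) beside 2.43 for the large-subunit gene Rpl36. With gaps counted it is 96.6% identical to the parent, the lowest of these 7.

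The log2 fold changes of the 47 rising copies ran from 1.39 to 3.18, and the copy minus parent difference had a median of -0.17 and lay within 1 in 46 of the 47. These copies were picked for a value above 1, which by itself keeps them near parents that rose. Over all tested and aligned members the median difference was -2.57, and over those with at least 100 counts in the ING4-/- libraries together it was -0.90. The copy outside that range was Rps15a-ps5, named after its value was seen, at 1.39 beside 2.71 for Rps15a, and its call was lost with population as a block (edgeR adjusted p = 0.342). Of the 12 identical copies, 11 were tested and all 11 rose (3 with population as a block), with copy minus parent differences from -0.90 to 0.56. The twelfth, Rpl10-ps1, had 36 counts in all ING4-/- libraries together and did not pass the filter. Rps16-ps2, Rps13-ps2, Rpl31-ps8 and Rps19-ps6 read without a stop over as many codons as the parent protein has residues (146, 151, 125 and 145).

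**Figure D3:**
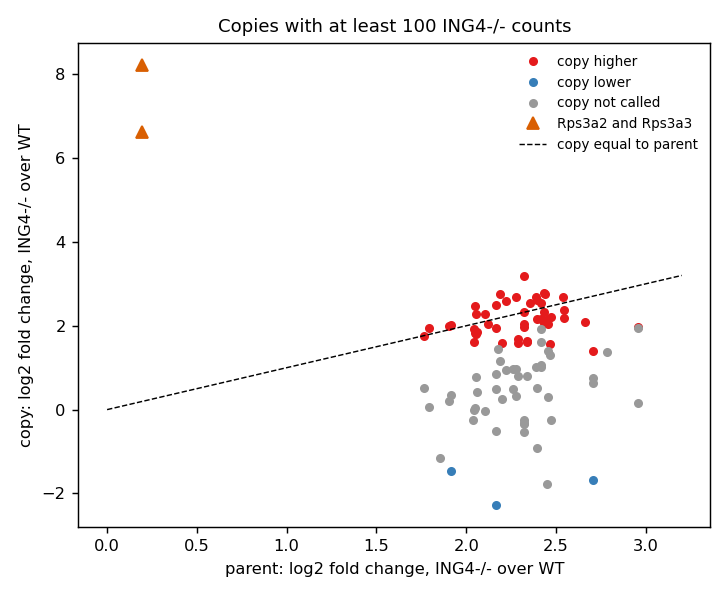
Log2 fold change of ING4-/- over WT for the parent (x axis) and the copy (y axis), for the tested and aligned members with at least 100 counts summed over the ING4-/- libraries; color gives the copy's call. Rising copies lie about the dashed line of equality, with a median difference of -0.17, and Rps3a2 and Rps3a3 (triangles) lie at 6.63 and 8.23 above a parent at 0.19.

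Copies that fell stood at a median of 3.11 times the receptor background in WT, beside 1.30 times for all 274 members. A copy near 0 in ING4-/- passed the filter only through its WT counts, so this difference is no test. Of the 74 that fell, 39 had at most 3 counts in each ING4-/- library and 18 had none at all. The largest was Rpl10-ps2, the diverged copy printed above and named after its value was seen, with 191, 81 and 138 counts in WT and 8, 6 and 5 in ING4-/-. Its log2 fold change was -6.12 (SE 0.72, edgeR adjusted p = 6.6e-04), while its parent Rpl10 rose by 2.08. Rps2-ps12, chosen in the same way, is 75.0% identical to Rps2 and had 185, 71 and 73 counts in WT and 0 in every ING4-/- library, which is at least 123-fold lower against a floor of 3 counts per ING4-/- library. Only 3 of the falling copies reached 100 counts over the ING4-/- libraries, Rps15a-ps4, Rpl31-ps16 and Rps6-ps1, and none of them kept the call with population as a block (edgeR adjusted p = 0.324, 0.230 and 0.371).

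Summed over families, copies other than those of Rps3a1 held a larger fraction of the counts in WT than in ING4-/-. By single family, the fraction in every WT library was above that in every ING4-/- library in 41 of 58. The genotypes overlapped in the other 17, and in 0 families was every WT library below. Over the 58 other families, copies held 2.98%, 2.75% and 2.51% of the family counts in WT, and 0.752%, 0.920% and 0.833% in ING4-/-. The means were 2.75% ± 0.235 and 0.835% ± 0.0842 (SD, n = 3), and the groups did not overlap (two-sided exact permutation test, p = 0.10, the smallest that 3 against 3 can give). With the receptor background subtracted, the WT mean was 1.84% ± 0.176 and the ING4-/- mean 0.835% ± 0.0842. With the other annotated copies of these families added they were 10.0% ± 1.04 and 1.97% ± 0.12, and for members at least 95% identical to the parent 2.09% ± 0.0985 and 0.993% ± 0.095. The receptor density alone would place 57.0%, 54.5% and 40.8% of the counts seen on the 274 members in the WT libraries, and under 0.05% in ING4-/-.

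In 8 families, copies held at least 5% of the counts in every WT library. They were named for that fraction, so a lower fraction in ING4-/- is no test. Of their 105 copies 67 were tested, and only these could rise or fall. For Rpl31, with 21 copies, the fraction was 21.7%, 13.9% and 17.1% in WT and 3.57%, 4.33% and 4.13% in ING4-/-. Of these copies 2 rose and 9 fell, Rpl31-ps7 among the latter with 78, 66 and 43 counts in WT and 0 in ING4-/-. For Rpl23a, with 14 copies, it was 13.9%, 18.8% and 16.1% against 1.12%, 0.850% and 0.861%, and 1 copy rose and 4 fell. Rpl23a-ps5, 93.1% identical, had 73, 92 and 71 counts in WT and 3, 2 and 2 in ING4-/-.

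For Rpl7a, 6 of the 11 copies were tested in edgeR and 5 fell. None rose in edgeR, at an unadjusted p under 0.05 or in DESeq2. The fraction for Rpl7a was 13.2%, 11.0% and 11.3% in WT and 0.417% to 0.432% in ING4-/-. Rps15a, with 8 copies, had 14.9%, 13.7% and 10.9% against 1.64%, 1.68% and 1.79%, and 1 copy rose and 3 fell. For Rps12, with 22 copies, of which 1 rose and 4 fell, the fraction was 16.4%, 11.0% and 9.11% in WT and 1.26% to 1.60% in ING4-/-.

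Of the 14 copies of Rpl21, 1 rose and 9 fell, and their fraction was 6.97% to 9.26% in WT and 2.01% to 2.47% in ING4-/-. The riser, Rpl21-ps15, is 99.4% identical to Rpl21 and had 60, 80 and 83 counts in WT and 992, 760 and 738 in ING4-/-. Rpl30 had 9 copies, 1 rising and 3 falling, at 6.88% to 11.9% in WT and 0.958% to 1.14% in ING4-/-. Rpl35a had 6, with 2 rising and 1 falling, at 5.92% to 7.15% and 1.24% to 1.37%. Over these 8 families, 9 of the 67 tested copies (13.4%) rose and 38 (56.7%) fell, beside 7.98% and 56.7% of all genes tested, so the share that fell was that of all genes. With population as a block 1 of the 67 rose and 24 fell, beside 6.45% and 54.4% of all genes. Both shares were then below those of all genes, and Rpl21-ps15 lost its call (edgeR adjusted p = 0.113). No family but that of Rps3a1 reached 5% in an ING4-/- library, where the highest value was 4.33%.

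**Figure D4:**
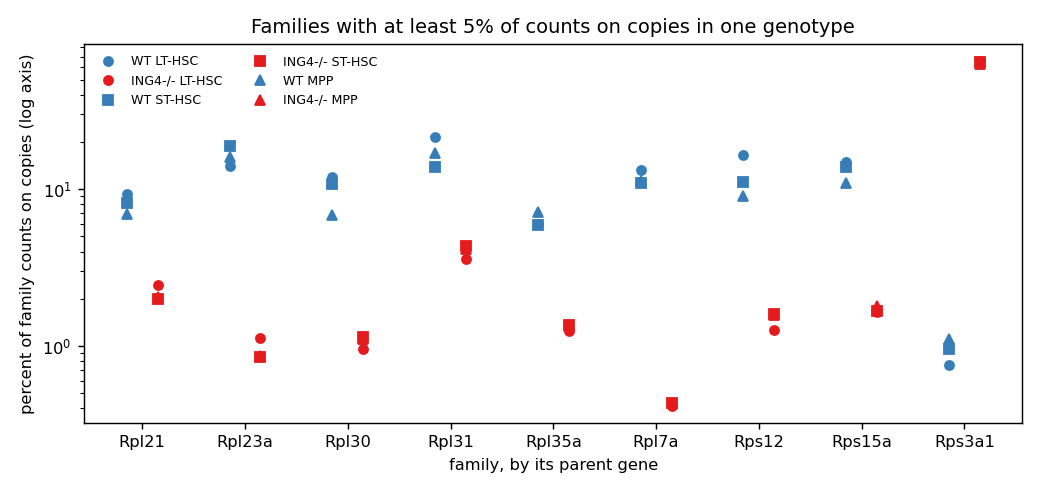
Percent of a family's counts that fell on its copies (log axis) in each library, for the 8 families at 5% or more in all WT libraries and for that of Rps3a1; blue points are WT, red points ING4-/-, and shapes mark the populations. The first 8, chosen for their WT fraction, are higher in WT. That of Rps3a1, whose copies were chosen by their counts, is the reverse, at 0.754% to 1.11% in WT and 62.7% to 65.4% in ING4-/-.

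The last comparison asked whether a parent with its copies behaved as an ordinary ribosomal protein gene. Counted alone, 58 of the 59 parents rose in ING4-/-, against 7.98% of all genes tested. The exception was Rps3a1, the parent of the chosen copies. The other 83 ribosomal protein genes, with or without copies, had log2 fold changes from 1.33 to 3.09 with a median of 2.32, so that Rps3a1 lay 2.13 below that median and under every one of them. This distance was between -2.17 and -2.08 in all the alternatives tried on gene counts, whatever the scaling.

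The counts of the copies were then added to their parent and the table was fitted again. All 59 families rose, against 7.87% of the 30814 rows of that table. The rise of the Rps3a1 family is no test, since its copies were chosen by their counts in these libraries. For Rps3a1 with its copies the log2 fold change was 1.67 (SE 0.12), 0.63 below the median of the other 83, and 1 of these, Rpl4 at 1.33, was lower. Without WT LT-HSCs, or without ING4-/- MPPs, 3 were lower, and 8 were with the other annotated copies added to every parent. The nearest above were Rpl21 at 1.68 and Rpl7a at 1.68. Within populations the summed Rps3a family stood at log2 ratios of 1.88, 1.65 and 1.503, where the other ribosomal protein genes alone had medians of 2.50, 2.29 and 2.20. Rps3a1 alone had 0.36, 0.16 and 0.10. The sum thus stood inside the range of the others, in its lower end, in each population. Its distance from Rps3a1 alone comes from the chosen copies, so this placing is a description. With the background subtracted the family's value was 0.86, under the limit of 1, beside a median of 1.53 for the others.

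Adding copies changed the other parents little. Their log2 fold changes moved by -0.24 to 0.01, with a median of -0.02. The SD over the 83 ribosomal protein genes other than Rps3a1 was 0.294 alone and 0.298 with copies. Over all 84 it was 0.371 and 0.303, a difference that rests on the chosen copies of Rps3a1.

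**Figure D5:**
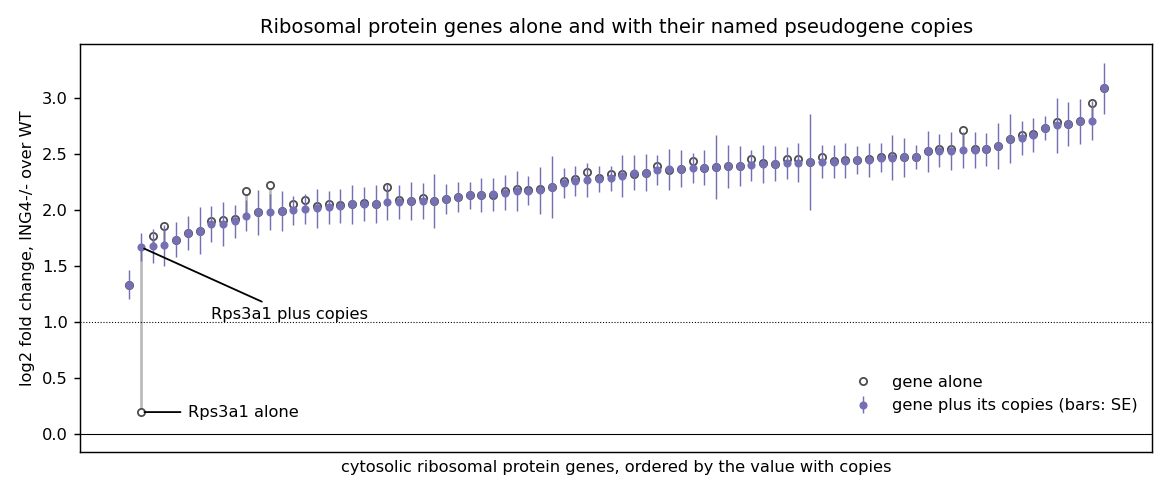
Log2 fold change of ING4-/- over WT for each of the 84 ribosomal protein genes, alone (open circles) and with the counts of its copies added (filled circles, bars are SE), ordered by the latter. Rps3a1 moves from 0.19 to 1.67, and no other gene moves by more than 0.24. The dotted line is the limit of 1.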

How the data were processed

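The authors deposited raw counts of reads per gene for 6 libraries, and the length column equaled the union of the exons listed in the files for all 49315 genes, of which 49056 were found in GENCODE vM21. The submitters' processing notes name mm10. The aligner, the counting program, its strand setting, its rule for reads with several matches and the read length are not given in the sources used here, and each of these could change how counts are split between a copy and its parent. The members and lists were chosen with earlier results of these data known.

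From the counts, ING4-/- was compared with WT in edgeR 4.0.16 (R 4.3.3; TMM, filterByExpr, quasi-likelihood test) over all genes, with p-values adjusted by the Benjamini-Hochberg method. The SE of a log2 fold change is its absolute value over the root of F. DESeq2 1.42.0 was an alternative. Members were aligned to ribosomal protein transcripts with BLAST 2.17.0. Uniqueness of windows was counted among GENCODE transcripts on both strands, since no genome sequence was used here. Background was the density on 1429 receptor genes. Populations paired the libraries (deviations from the genotype means correlated at r = 0.143, 0.110 and 0.121 across 9673 genes, each over 0.1), and blocked values stand beside results they change. On simulated counts for this comparison, edgeR recovered 184 of 200 genes changed by 2 on the log2 scale, with 8 false calls among 34961 genes.

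Named genes were Ing4, Rps3a1, Rps3a2, Rps3a3, the 10 members of highest mean count, families with at least 5% of counts on copies in all libraries of a genotype, and the parents of these. The result for 1 of the 10 members and those for some marker genes are not reported here. In those families the copies with the most counts are named and the rest are counted. Alternatives were other normalizations and filters, background subtraction, leaving out each library in turn, population as a block, and other sets of copies. A count of 0 allows up to 3 counts, or a CPM of 0.383 in the shallowest and 0.0765 in the deepest library. Intervals and floors cover counting error only. Counts on copies identical or nearly identical to the parent are uncertain as to locus.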

Additional observations from a re-analysis of the deposited data

How the results depend on the processing

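The number of members that rose was 47, and it fell to 15 with at least 10 counts in every library, which tests fewer members, to 8 with population as replicate block, and to between 28 and 39 when 1 library was left out. The number that fell was 74, and it was 13 with at least 10 counts in every library and 71 to 94 with 1 library left out. The other alternatives kept both counts, and those of parents and families, within 1.5 times. Among the 10 most abundant members and their parents, the block changed the call of Rps19-ps6 and no other.

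The difference in the fraction of family counts on copies, ING4-/- minus WT, was -1.91 percentage points. It was -0.599 with Rps3a2 and Rps3a3 included, -1.01 with the background subtracted, -8.06 with other annotated copies added, -1.10 for members at least 95% identical, and -2.03 to -1.80 without 1 library. The median percent of a member's windows that were its own was 87.4 at 100 bases, 58.4 at 50 bases and 100 at 150 bases. Beyond the construction of each setting, the cause of these shifts was not tested.

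The log2 fold change of Rps3a1 was 0.79 with upper-quartile normalization. It turned to -0.16 with DESeq2 size factors, -0.14 in DESeq2, -0.31 with at least 10 counts in every library and -0.62 with the background subtracted. The median over all genes tested was -6.85, -7.17 with DESeq2 size factors and -6.35 with upper-quartile normalization, but 0.02 with at least 10 counts in every library and -0.93 with the background subtracted. Of 262 values for named genes under the alternatives, 251 kept their direction and side of the threshold and 7 lost the call. The other 4, those of Rps3a1, turned. Values of Rps3a2, Rps3a3 and the summed Rps3a family are among the 262, and these rest on loci chosen by their counts. Rps19-ps6, Rpl3 (at 0.99) and the summed Rps3a family (at 0.86) were among those that lost the call with the background subtracted. Depth limits the WT libraries, in which the median member had 41 counts over the 3 libraries.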

Other observations

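Further pseudogenes of ribosomal protein genes, most with systematic names, are not members. Of 1169 such annotated copies, 626 were tested, and 65 rose and 429 fell in ING4-/-, against 7.98% and 56.7% of all genes. The most abundant was Gm10736, identical to Rpl41 over its aligned bases, with 282, 345 and 468 counts in WT and 7077, 6097 and 6411 in ING4-/-. It rose by a log2 fold change of 2.43 (SE 0.25) beside 2.10 for Rpl41, and held 7.03% to 10.0% of the Rpl41 count in WT and 10.5% to 10.7% in ING4-/-. Gm4149, 99.6% identical to Rpl37a, had 184, 223 and 288 counts in WT and 4702, 4582 and 4475 in ING4-/-, with 2.58 (SE 0.25) beside 2.52. Both were named because they held the most counts.

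Another 6 loci with copy symbols are annotated as protein-coding. Rpl9-ps6 among them had 92, 98 and 122 counts in WT and 1788, 2077 and 1734 in ING4-/-, a log2 fold change of 2.43, whereas Rpl9-ps1 had 52, 28 and 41 and then 2, 3 and 1, a log2 fold change of -5.93.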
